A study of Drosophila melanogaster with 35 samples.

Results

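Feeding of hydrogen peroxide to adult male Drosophila melanogaster was examined with Affymetrix DrosGenome1 arrays. The 4 arrays titled hydrogen peroxide were compared with the 4 arrays titled stress controls, 8 of the 35 arrays in the series, and the titles alone chose them. Every fly was a male, labelled with the genotype w[1118]/+; P{w+ rtTA}(3)[E2]/+, from a cross of Oregon-R with a TM3-balanced stock that carried the P element, so the stress controls carried the rtTA transgene too. The methods write the first part of that genotype without the wild-type copy, and white lies on the X chromosome, which males carry once. The hydrogen peroxide flies were 11 days old and had spent 2 days on 1% sucrose that contained 3% hydrogen peroxide, and the stress control flies were 9 days old. A group of 4 arrays titled sugar, from flies of 11 days that spent 2 days on 1% sucrose alone, is given beside them. A further 4 arrays titled ionizing radiation are used for comparison, from flies of 11 days that received 5666 Rads per hour from a cesium source for 16 hours on standard food and then spent 2 days on 1% sucrose. Each array holds RNA of 25 whole flies, which were 1 vial for the treatments and sugar, while no source used here says whether a stress control array is also 1 vial. The p-values therefore measure the spread between batches of 25 flies, pooled over all 8 groups of the series and not taken from the compared groups alone. The study describes the controls as kept on normal media, while the protocol text shared by all samples also names stress controls where it describes sucrose vials. Against stress controls, the peroxide, the 2 further days of age and any change of food cannot be told apart. The sugar arrays have the age and the sucrose in common with the hydrogen peroxide arrays.

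Hydrogen peroxide crosses membranes and oxidizes thiols and iron centres in proteins. Cells remove it with catalase and peroxiredoxins, repair thiols with the thioredoxin and glutathione systems, and conjugate damaged lipids and other electrophiles to glutathione through glutathione S-transferases. In flies the transcription factor cnc with its partner maf-S, the kinase JNK, the heat shock factor Hsf and the insulin-regulated factor foxo are known to act on stress genes, and swallowed peroxide meets the midgut first.

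The deposited signals had a median between 395.4 and 412.2 on hydrogen peroxide arrays and between 407 and 423.9 on stress control arrays. The sugar arrays were on a lower scale, with medians between 44.6 and 70.1, and all arrays were put on 1 scale by quantile normalization before any comparison. Log2 signals of replicate arrays correlated at 0.957 to 0.966 within hydrogen peroxide, 0.974 to 0.982 within sugar and 0.975 to 0.978 within stress controls. The ratio of 3' to 5' actin signal, a measure of RNA integrity, lay between 1.88 and 2.34 on hydrogen peroxide arrays, 2.65 and 3.51 on sugar arrays and 1.48 and 1.99 on stress control arrays, and its part in the results was not tested. Ionizing radiation replicate 1 stood apart at 7.44, against 1.79 to 1.89 on the other 3 radiation arrays. Results with radiation are given without it for single genes, the largest changes and all genes, where that changed a call or a count. Apart from the folate and purine list, counts by gene list were not repeated without it. An array titled old, replicate 2, stood at 283.21, against 2.21 to 6.38 on the other old arrays. It enters the normalization, the pooled spread and the nested F-test. A fit on the 19 stress study arrays takes the old, young and hyperoxia arrays out of the spread and the F-test. It gave the same outcome for 190 of 192 named genes. Its signals were still normalized over all arrays, so this fit cannot check the part of the old array in the normalization. Signals quoted below are quantile-normalized, 4 per group in the order of the replicate numbers, and carry no unit.

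Of 10845 genes, 977 were up-regulated and 1056 were down-regulated by hydrogen peroxide, which is 9.01% and 9.74% of all genes. Counts within gene lists below stand against these shares, and a count near them is no result about the list. A gene was called when it passed limma's nested F-test at a false discovery rate of 1% and differed from stress controls by at least 1.5-fold. Of the called genes, 403 up-regulated and 597 down-regulated genes changed at least 2-fold, and 65 and 171 changed at least 4-fold. The 4 hydrogen peroxide arrays lay wholly above the 4 control arrays for 916 of the up-regulated genes and wholly below them for 985 of the down-regulated genes. Over all genes, called or not, the arrays lay wholly above the controls for 1952 and wholly below for 1638, which is 18% and 15.1%. Against sugar arrays, 705 genes were higher and 989 were lower, 6.5% and 9.12% of all genes, by limma's moderated test at the same thresholds. Of the 977 up-regulated genes, 522 were also higher than in sugar, 0 were lower and 455 were not called against sugar. Of the 1056 down-regulated genes, 757 were also lower than in sugar, 1 was higher and 298 were not called. Over the same 4 control arrays, sugar alone up-regulated 317 genes (2.92%) and down-regulated 237 (2.19%), and ionizing radiation up-regulated 851 (7.85%) and down-regulated 893 (8.23%). Without ionizing radiation replicate 1, radiation up-regulated 822 and down-regulated 878.

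**Figure D1:**
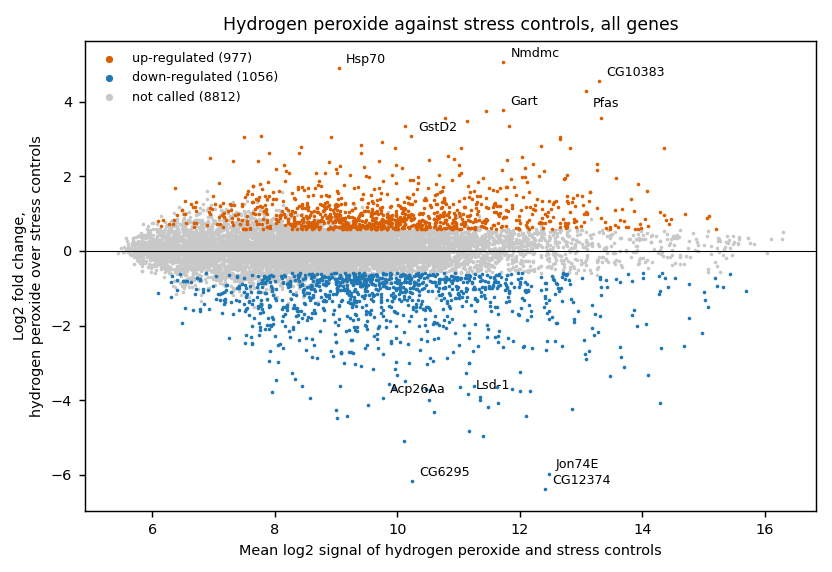
Log2 fold change of hydrogen peroxide over stress controls (vertical axis) against the mean log2 signal of both groups (horizontal axis) for 10845 genes. Orange and blue points are the 977 up-regulated and 1056 down-regulated genes, grey points were not called, and the labelled genes reach 5.06 (Nmdmc) and -6.38 (CG12374).

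The genes of folate one-carbon metabolism and purine synthesis had the highest median change of the lists examined. Folate enzymes pass single carbon units from serine and glycine into the purine ring, and the purine pathway builds it in steps on a ribose phosphate. Of 24 measured genes on this list, 16 were up-regulated and 1, the adenosine deaminase Adgf-A, was down-regulated, with a median log2 fold change of 1.64 against 0.05 over all genes. The gene with the highest log2 fold change of all 10845 was Nmdmc, a mitochondrial methylenetetrahydrofolate dehydrogenase. Its signals were 16876, 19297, 19935 and 21177 on hydrogen peroxide arrays, 894, 1085, 1034 and 751 on sugar arrays and 579.7, 706, 619 and 326 on stress control arrays. The lowest hydrogen peroxide array stood far above the highest array of either other group, with a log2 fold change of 5.06 ± 0.20 (SE; adjusted p = 1.17e-18) over stress controls and 4.31 ± 0.20 (adjusted p = 1.07e-16) over sugar.

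Enzymes that build the purine ring itself followed the same pattern. Pfas, phosphoribosylformylglycinamidine synthase, had signals of 33960.3, 41317, 44054 and 33540.4 in hydrogen peroxide, 2999.5, 2930.5, 3374 and 2699.7 in sugar and 1636, 2047, 1865 and 2098 in stress controls, a log2 fold change of 4.29 ± 0.12 (adjusted p = 1.26e-22). Gart, which carries 3 activities of the pathway on 1 protein, gave 10644, 12560.1, 14859 and 11754 in hydrogen peroxide, 844, 1075, 1080.4 and 1011 in sugar and 989, 799, 874 and 827 in stress controls, a log2 fold change of 3.77 ± 0.12 (adjusted p = 2.43e-21). Sugar and control arrays of Gart overlapped, and no hydrogen peroxide array came near them. A probe set that the platform assigns both to CG31381 and to CG11089, the enzyme of the last steps to inosine monophosphate, had a log2 fold change of 3.60 ± 0.18 and is in no gene count. Further up the pathway, Prps, which makes the activated ribose, rose by 1.95 on the log2 scale, and Prat2, Paics, Adsl and Adss by 1.24, 1.80, 2.10 and 1.48. The second copy of the entry enzyme, Prat, was not called at 0.64, nor were ras and bur, which lead to guanine nucleotides, at -0.03 and -0.22.

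The RNA of enzymes that supply serine and glycine to folate rose with them. The last enzyme of serine synthesis, aay (phosphoserine phosphatase), had signals of 17384, 22675, 17656 and 16797 in hydrogen peroxide, 2274, 2145, 2087 and 2403 in sugar and 2175, 2562, 2103 and 1952 in stress controls. Its arrays did not overlap those of either group, and the log2 fold change was 3.06 ± 0.11 over stress controls (adjusted p = 1.14e-19) and 3.03 over sugar. The first enzyme, CG6287, rose by 1.30, and Shmt, which splits serine into glycine and a folate-bound carbon, by 2.53. The cytosolic folate enzyme pug rose by 2.15, and Gnmt and Sardh, which methylate glycine and remove the methyl group again, by 2.32 and 2.08. On the same list, Hpd, an enzyme of tyrosine breakdown, rose by 3.00, and ry, the xanthine dehydrogenase that degrades purines, by 1.06. Of the 24 genes, 15 were higher and 1, Mthfs, was lower than in sugar, while sugar alone up-regulated 7 of them over stress controls. Ionizing radiation, followed by 2 days on sucrose, up-regulated 16 of the 24 over the same controls, and by limma's moderated test Nmdmc and Gart differed from radiation by 0.60 (adjusted p = 0.0354) and -0.17 (adjusted p = 0.346), neither of which was called.

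**Figure D2:**
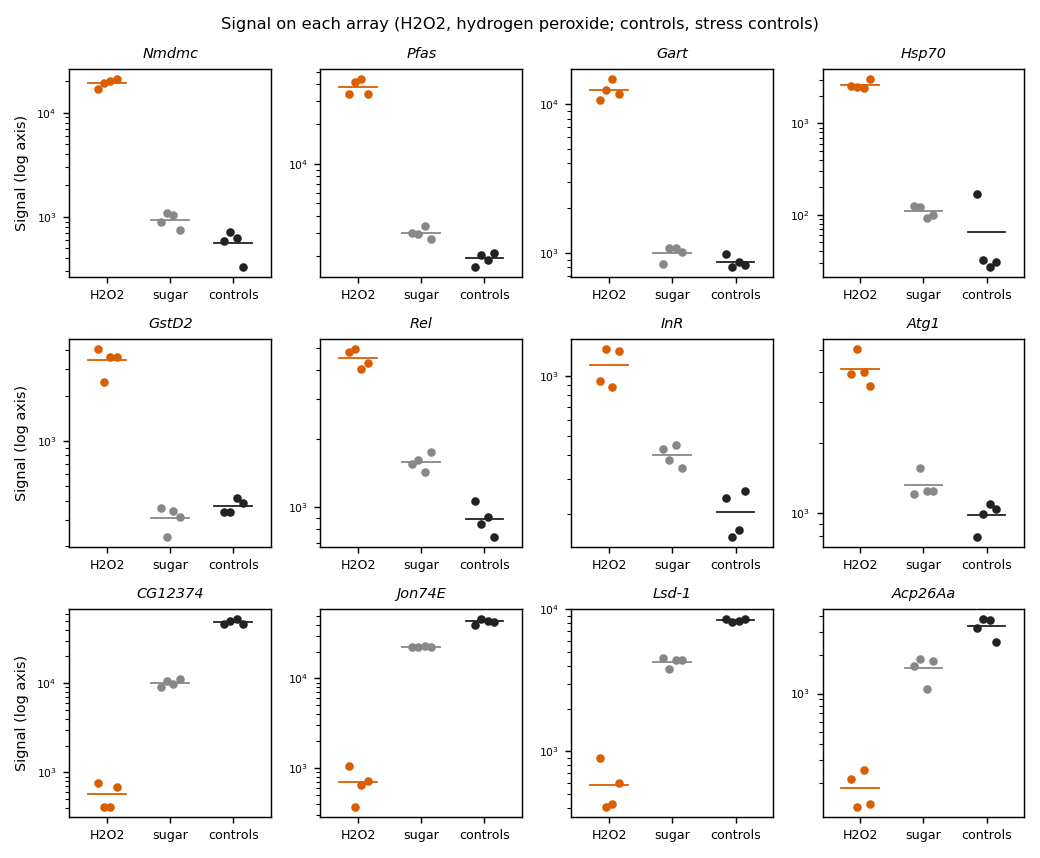
Quantile-normalized signal (log axis) of 12 genes on each array, in hydrogen peroxide, sugar and stress controls from left to right, with 4 points per group and a bar at the group mean. Nmdmc, Pfas, Gart, Hsp70, GstD2, Rel, InR and Atg1 have every hydrogen peroxide point above the control points, and CG12374, Jon74E, Lsd-1 and Acp26Aa have every hydrogen peroxide point below them.

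Beside these, the 20 genes with the largest increases included several of unlike function. CG10383 gave 43414, 52540.1, 47789 and 49719 in hydrogen peroxide, 2189.5, 2673, 2666 and 2274 in sugar and 2149, 1707, 2321 and 1959 in stress controls, a log2 fold change of 4.55 ± 0.16. Increases of 3.74 in the serpin Spn88Eb, 3.57 in CG14245, 3.55 in CG12826, 3.49 in the cold-recovery gene Fst, 3.35 in CG12780, a relative of Gram-negative binding proteins, and 2.85 in the extracellular leucine-rich repeat protein atk were also among them. Sugar alone up-regulated 6 of these 20 genes over the same controls. Of the 20, 19 were higher than in sugar too, which is a description, since the same hydrogen peroxide arrays chose them. The exception was CG13215, with 651, 679, 609 and 459.9 in hydrogen peroxide, 506, 473, 483 and 369 in sugar and 33.8, 28.6, 34.9 and 46.4 in stress controls. Its hydrogen peroxide and sugar arrays overlapped (log2 difference 0.36 ± 0.19, adjusted p = 0.181), and both groups stood clear of the controls. Arc2, which encodes a capsid-like protein related to mammalian Arc, gave 416, 501, 399 and 612 in hydrogen peroxide against 34.6, 33.1, 11.1 and 17.7 in stress controls, a log2 fold change of 3.05 ± 0.30. The control signals of Arc2 lie below 38.6, the constant added to every signal before the logarithm, so its fold change is understated.

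Heat shock proteins refold or hold denatured proteins, and Hsp70 is the main inducible one in flies. Of 11 measured genes on the heat shock list, 7 were up-regulated and 0 down-regulated, with a median log2 fold change of 0.74. The Hsp70 probe set, which its near-identical gene copies share, gave 2553, 2474, 2463 and 3077 in hydrogen peroxide, 124, 121, 92.6 and 100.0 in sugar and 170.1, 32.1, 26.7 and 30.5 in stress controls. Control replicate 1 was well above the other 3 controls, which were under 38.6 and make the fold change an underestimate. Every hydrogen peroxide array was above all of them, with a log2 fold change of 4.89 ± 0.36 (adjusted p = 1.8e-12). Smaller increases were measured for the small heat shock genes l(2)efl, at 1.58 ± 0.12, and Hsp26, at 1.19 ± 0.23. Hsp68 rose by 1.24, the co-chaperone stv by 1.25, DnaJ-1 by 0.74 and Hsp27 by 0.65. The DnaJ-1 call was lost without hydrogen peroxide replicate 4 (0.55), and the Hsp27 call without stress control replicate 1 (0.55). Hsp83, named through the study's supplementary tables and outside the counts, had a log2 fold change of 0.35 ± 0.13 and was not called. Its arrays lay above the controls, and it was higher than sugar by 0.78 ± 0.13 (adjusted p = 1.98e-05). The 3 probe sets shared by Hsp22 and CG4456 lay between -0.58 and 0.42, also not called. The brightest, at 0.42, had its arrays above the controls. The set at -0.58 was called down without hydrogen peroxide replicate 1 or 3 or stress control replicate 1, 3 or 4, at -0.59 to -0.84. Of 15 genes of the endoplasmic reticulum stress list, 2 rose, Sil1 and Ero1L, and 1 fell, the lumenal chaperone Hsc70-3. Its hydrogen peroxide signals of 4784, 7841, 4756 and 5090.1 overlapped the sugar signals of 4887, 3624, 3752 and 4610.0 and also the control signals of 9645, 8924, 6819 and 8669.6. The Hsc70-3 call was lost without any one of hydrogen peroxide replicates 1, 3 and 4 or stress control replicate 1, at -0.55 to -0.58.

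Glutathione S-transferases moved in both directions. Of 34 measured genes, 6 were up-regulated and 10 were down-regulated, with a median of 0.04. The delta class lies in RefSeq as 11 genes that neighbour each other within 2 genes, and 5 of them rose while 1, GstD7, fell by 1.30 on the log2 scale. GstD2 gave 4094, 2478, 3616 and 3634 in hydrogen peroxide, 357, 229, 341 and 312 in sugar and 336, 335, 417 and 388 in stress controls, with no overlap and a log2 fold change of 3.08 ± 0.18 (adjusted p = 1.08e-14). GstD5 gave 2530.3, 2451, 2016 and 1806 in hydrogen peroxide, 331, 448, 319 and 447 in sugar and 467, 371, 397 and 419.6 in stress controls, a log2 fold change of 2.30 ± 0.28. Both stood well above sugar and control arrays, which overlapped each other. GstD9, GstD3 and GstD4 rose by 1.22, 0.69 and 0.65. The much used reporter gene GstD1 gave 40138, 38231, 40319 and 38053 in hydrogen peroxide, 30677, 33089, 32056 and 32056 in sugar and 30297, 29737, 29224 and 28529 in stress controls. Those arrays did not overlap, but at 0.41 ± 0.08 the difference fell short of 1.5-fold, and with scaling to a common trimmed mean in place of quantile normalization it was 0.61 and called. The GstD4 call was lost without hydrogen peroxide replicate 1 (0.58) and without stress control replicate 2 (0.56), and the GstD7 call without hydrogen peroxide replicate 4 (-0.94).

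In the epsilon class, 10 genes neighbour each other within 2 genes, and 0 of them rose while 7 fell. GstE10 gave 186, 85.8, 247 and 141 in hydrogen peroxide, 899, 904, 591 and 1271 in sugar and 849, 666, 628 and 441 in stress controls, a log2 fold change of -1.78 ± 0.22. GstE5 gave 555, 224, 346 and 386 in hydrogen peroxide, 1064, 764, 805 and 951 in sugar and 1178, 1219, 1108 and 1250.2 in stress controls, a log2 fold change of -1.62 ± 0.14. For both genes every hydrogen peroxide array was below every sugar and control array. GstE12, which lies apart from that group, and the theta-class GstT3 fell by 1.14 and 1.35 on the log2 scale. Of the zeta-class enzymes of tyrosine breakdown, GstZ2 rose by 1.83 ± 0.15, and GstZ1 was not called at -0.55 ± 0.38. Without hydrogen peroxide replicate 3, replicate 4 or stress control replicate 1, GstZ1 was called down, at -0.70 to -0.80. Probe sets of close paralogs can pick up one another's RNA, so the values of single GstD and GstE genes are not fully separate.

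**Figure D3:**
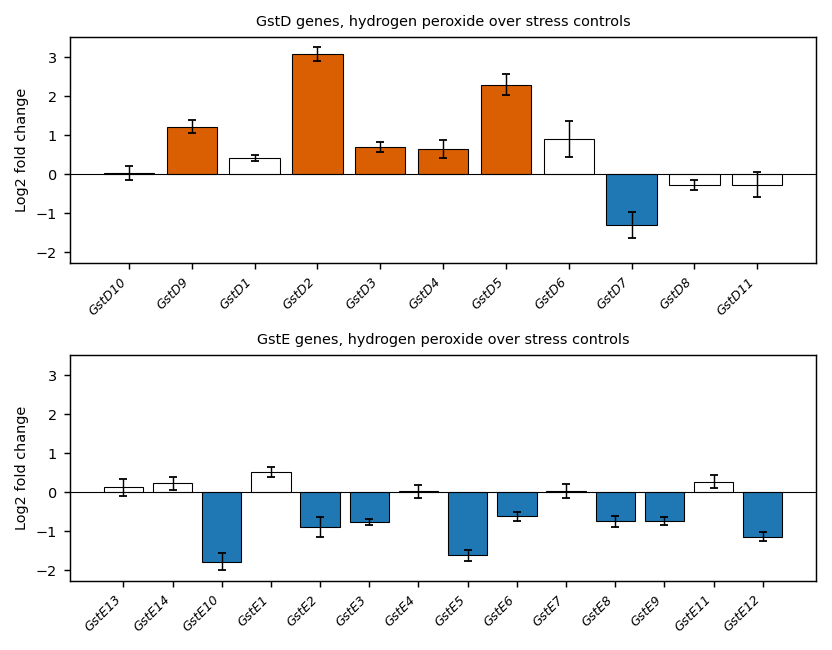
Log2 fold change of hydrogen peroxide over stress controls (bars start at 0, error bars are the SE of the fit) for the GstD genes (upper panel) and GstE genes (lower panel) in their order in RefSeq. Filled bars were called, and GstD2 at 3.08 and GstE10 at -1.78 are the extremes.

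Antioxidant enzymes remove superoxide and peroxides or restore oxidized thiols. Of 25 antioxidant genes, 5 were up-regulated and 4 down-regulated, with a median of -0.15. Against sugar, only 2 of the 25 were higher and 2 lower. Catalase (Cat), which splits hydrogen peroxide, gave 18658, 17971, 23809.8 and 24190.4 in hydrogen peroxide, 19844, 18075, 19297 and 20669 in sugar and 16946, 18283, 20316 and 22239.9 in stress controls. The arrays overlapped at a log2 difference of 0.12 ± 0.10 (adjusted p = 0.449). The superoxide dismutase Sod2 was not called either, at -0.22. Increases were measured for Irc, an immune-regulated peroxidase, at 1.23 ± 0.12, and for Prx1, Trxr1, Srx and Gtpx, which act in thiol peroxide removal and its repair, at 0.81, 0.74, 0.73 and 0.64. The mitochondrial peroxiredoxin Prx3 gave 933, 842, 870.3 and 919 in hydrogen peroxide, 1147, 1529, 1369 and 1565 in sugar and 1649.5, 1699, 1744 and 1489 in stress controls, and fell by 0.86 on the log2 scale. Idh, Ccs and Grx1, which supply NADPH, load copper and reduce disulfides, fell by 0.73, 0.68 and 0.59 on the log2 scale. Ccs lost its call without hydrogen peroxide replicate 2 (-0.53), Gtpx without replicate 4 (0.52), and Grx1 without either of those (-0.58) or stress control replicate 2 (-0.56). In the cnc pathway, 3 of 10 genes rose, maf-S (0.92), ref(2)P (0.78) and Trxr1, and Jheh2 fell by 1.67. Against sugar, 1 of the 10 was higher and 1 lower.

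Other detoxifying enzymes fell more often than they rose. Of 80 cytochrome P450 genes, 10 were up-regulated and 19 were down-regulated, and of 33 UDP-glycosyltransferases 0 rose and 7 fell. Cyp4ac3 gave 1945, 2606, 2598 and 3044 in hydrogen peroxide, 647, 604, 608 and 504 in sugar and 390.2, 372, 366 and 249.5 in stress controls, a log2 fold change of 2.76 ± 0.16, while its relatives Cyp4ac1 and Cyp4ac2, at -1.30 and -1.30, fell. At the other end Cyp4d14 gave 133, 94.4, 104 and 96.6 in hydrogen peroxide, 758, 714, 814 and 796 in sugar and 808, 931, 952 and 836 in stress controls, a log2 fold change of -2.66 ± 0.11. Sugar and control arrays of Cyp4d14 were close to each other, and the hydrogen peroxide arrays lay well below both. Of 21 genes of metal handling, both ferritin subunits, Fer1HCH and Fer2LCH, rose, by 0.88 and 1.00, and so did Tsf3 (1.20). The blood iron carrier Tsf1 fell, with 7877, 3596, 4639 and 4866 in hydrogen peroxide, 13487, 11066, 15386 and 12749.5 in sugar and 32424, 27839.6, 27839.6 and 33744 in stress controls. It was lower in sugar than in controls as well, and lower again with peroxide (log2 difference from sugar -1.37 ± 0.15). The metallothionein MtnC gave 3090.5, 1016, 1508 and 2140.1 in hydrogen peroxide, 15744, 12168, 15812 and 23099.5 in sugar and 12027, 11341, 10733 and 10335 in stress controls, a log2 fold change of -2.61 ± 0.20.

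The kinase JNK passes stress signals to the Jun transcription factor. Of 18 genes, 8 were up-regulated by hydrogen peroxide and 0 down-regulated, 7 were higher than in sugar, and sugar alone called 0 in either direction. The phosphatase puc, a JNK target that feeds back on the kinase, gave 2487, 2686, 2337 and 1975 in hydrogen peroxide, 956, 996, 915 and 996 in sugar and 851, 616, 627 and 524 in stress controls, with no overlap and a log2 fold change of 1.81 ± 0.20 (adjusted p = 8.75e-09). Jra, the fly Jun protein, rose by 1.58, raw by 1.34, Gadd45 by 1.05 and the matrix protease Mmp2 by 1.46. The kinases themselves, hep and bsk, were not called at 0.22 and 0.66, although without hydrogen peroxide replicate 4 bsk was called up at 0.76. Of 27 genes of EGFR, Notch and related gut renewal signals, 3 rose, close to the 9.01% of all genes. The transcription factor Ets21C led them with 305, 428, 385 and 205 in hydrogen peroxide, 25, 35.7, 35.1 and 15.8 in sugar and 35.1, 27.2, 26.2 and 29.3 in stress controls, where every sugar and control signal was under 38.6 and the log2 fold change of 2.40 ± 0.28 is understated. Among JAK/STAT genes, the receptor dome rose by 1.28 and the phosphatase Ptp61F by 0.63, 2 of 13 genes, against 9.01% of all genes. The Ptp61F call was lost without hydrogen peroxide replicate 2 (0.56) or 3 (0.60) and with the mean of its probe sets (0.31). A probe set for TotM, a secreted stress peptide of the Turandot family, named through the study's supplementary tables and in no count, gave 1108, 970, 1450.4 and 885 in hydrogen peroxide, 141, 217, 165 and 289 in sugar and 103, 91.8, 997 and 166 in stress controls. Control replicate 3 overlapped the hydrogen peroxide arrays of TotM, which rose by 2.17 ± 0.50, or by 2.85 without that array.

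Of 31 recognition and signalling genes, 7 were up-regulated and 4 were down-regulated. Rel, the NF-kappaB factor of the Imd pathway, gave 4799, 4972, 4053 and 4304 in hydrogen peroxide, 1553, 1609.6, 1425 and 1744 in sugar and 1066, 841, 902 and 738 in stress controls, a log2 fold change of 2.31 ± 0.14 over controls and 1.49 ± 0.14 over sugar. Its 3 groups of arrays did not overlap, with sugar between the others. The inhibitors cact and pirk, of the Toll and Imd pathways, rose by 1.62 and 1.31, and Tab2 by 1.10. The secreted recognition protein PGRP-SB1 gave 432, 56.1, 299 and 186 in hydrogen peroxide, 1663, 1803, 1553 and 1431 in sugar and 2334, 2062, 1941 and 2178 in stress controls, a log2 fold change of -3.17 ± 0.33, and 2 further recognition proteins, PGRP-SC2 and GNBP3, fell by 2.05 and 2.02. Among 8 antimicrobial peptide genes in the counts, Drs rose, with 3386, 3242, 2937 and 2214 in hydrogen peroxide, 1918, 1886, 1924 and 1724 in sugar and 1324, 1125, 1196 and 1139.8 in stress controls. Its log2 fold change was 1.26 ± 0.29 over controls (adjusted p = 0.000889) and 0.63 ± 0.29 over sugar, which was not called (adjusted p = 0.105). The related Drsl5 fell by 1.39, and the other 6 were not called. Of the 8 genes, 0 were higher and 1 was lower than in sugar. Their summed signal ran from 6101 to 9257 in hydrogen peroxide, 12291 to 14347 in sugar and 9907 to 13216 in stress controls. Of 9 Bomanin and Daisho peptide genes of the Toll pathway, 2 rose and 1 fell. Against sugar, 0 of those 9 were higher and 5 were lower. A probe set for the attacin AttA, named through the study's supplementary tables and in no count, gave 2012, 1462, 752 and 1074 in hydrogen peroxide, 307, 325, 225.5 and 357 in sugar and 665, 232, 221 and 173 in stress controls. Its hydrogen peroxide arrays lay above both other groups, and it rose by 2.00 ± 0.52 over controls (adjusted p = 0.00322) and was higher than sugar by 1.92 ± 0.52 (adjusted p = 0.00526).

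Of 37 genes of the DNA damage response, 12 were up-regulated and 0 down-regulated, and 5 were higher than in sugar. Xpc, which recognises bulky lesions, rose by 1.27 ± 0.17, and mre11 and rad50, of the double-strand break complex, by 1.07 and 0.98. The p53 target Corp gave 426, 396, 494 and 465 in hydrogen peroxide, 191, 239, 172 and 199.9 in sugar and 112, 207, 201 and 211 in stress controls, a log2 fold change of 1.15 ± 0.17. Its hydrogen peroxide arrays lay above both other groups, which overlapped. Against ionizing radiation, mre11 was lower in hydrogen peroxide by 1.00 ± 0.15 on the log2 scale (adjusted p = 6.37e-06), and Corp and Xpc did not differ by a call (-0.33 and -0.25).

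**Figure D4:**
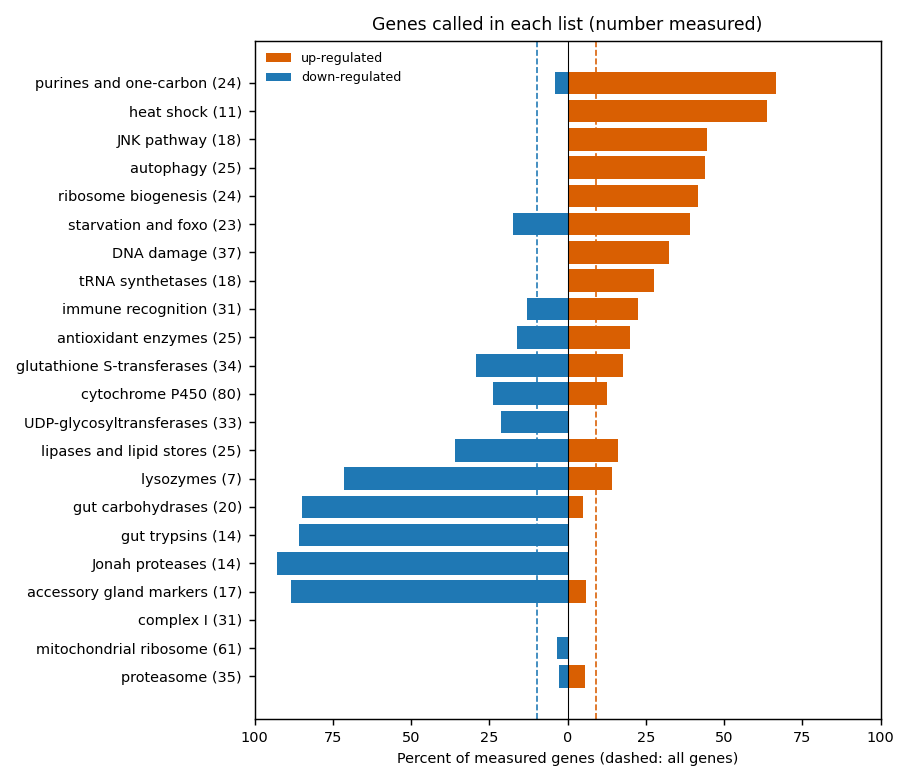
Share of the measured genes of each list (horizontal axis, percent) that were up-regulated (orange, right of 0) or down-regulated (blue, left of 0) by hydrogen peroxide over stress controls. Dashed lines mark the shares over all genes, 9.01% up and 9.74% down.

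Low insulin signalling activates foxo, which in flies raises the insulin receptor InR, the adaptor chico and the translational brake Thor (4E-BP), and fasting flies break down stored fat with the lipase bmm. Of 23 genes of this group, 9 were up-regulated and 4 were down-regulated, and sugar alone up-regulated 4. InR gave 944, 1381, 884 and 1347 in hydrogen peroxide, 429.8, 376, 447 and 341 in sugar and 242, 152, 167 and 261 in stress controls, a log2 fold change of 2.27 ± 0.34 over controls and 1.41 ± 0.34 over sugar. No arrays of the 3 groups overlapped, and sugar lay between the others. For chico the signals were 2539.9, 3354, 3470.4 and 3645 in hydrogen peroxide, 978, 1019, 1144 and 884 in sugar and 887, 511, 919 and 778 in stress controls, a log2 fold change of 2.04 ± 0.18. Thor, named through the study's supplementary tables and in no count, had a log2 fold change of 2.83 ± 0.13 over controls and 2.04 ± 0.13 over sugar. REPTOR and REPTOR-BP, the factors held back by TORC1, rose by 1.68 and 0.94, the insulin-binding protein ImpL2 by 1.09 and the hormone gene Akh by 0.85. The sugar-responsive factor sug and its target tobi fell, by 2.04 and 1.81 on the log2 scale, and so did the Akh receptor AkhR, by 1.24.

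Pepck1, the gluconeogenic phosphoenolpyruvate carboxykinase, was called against sugar and not against stress controls. It gave 36161, 41052, 43124 and 36418 in hydrogen peroxide, 17298, 15116, 16284 and 18721 in sugar and 38860.3, 49719, 40319 and 52540.1 in stress controls. Hydrogen peroxide and control arrays overlapped (-0.20 ± 0.10, adjusted p = 0.144), and the sugar arrays were lower than both, by 1.22 ± 0.10 from hydrogen peroxide (adjusted p = 5.85e-11). The larval storage protein gene Lsp2 was the 1 gene called down against stress controls and up against sugar. It gave 888, 1222, 774 and 1322 in hydrogen peroxide, 375, 309, 416 and 228 in sugar and 2546, 2809, 1847 and 2516 in stress controls, log2 differences of -1.19 ± 0.19 from controls and 1.55 ± 0.19 from sugar. The 3 groups of Lsp2 arrays did not overlap.

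Among 25 genes of lipid storage and lipases, 4 rose and 9 fell. The lipase bmm gave 4207, 5922, 5259 and 3979.6 in hydrogen peroxide, 2009, 2212, 2205 and 2098 in sugar and 998, 1315, 1287 and 1616 in stress controls, a log2 fold change of 1.86 ± 0.25, and Lpin, the phosphatidate phosphatase, and SREBP, the regulator of lipid synthesis, rose by 2.45 and 1.75. Against that, Lsd-1, a perilipin that coats fat droplets, gave 891, 403, 428 and 596 in hydrogen peroxide, 4519, 3778, 4367 and 4367 in sugar and 8602, 8107, 8321 and 8582 in stress controls. Each group of Lsd-1 arrays lay apart from the others, and the log2 fold change was -3.84 ± 0.16 over controls (adjusted p = 4.9e-18). The lipoprotein gene apolpp gave 5109, 3237, 3014 and 2734 in hydrogen peroxide, 19485, 16723, 17545 and 19187 in sugar and 21972, 23334, 20406 and 23511 in stress controls, a log2 fold change of -2.69 ± 0.14. The gut lipase mag (-2.71) and the sterol-binding protein Npc2d (-4.27) fell too, 2 hydrogen peroxide signals of Npc2d being under 38.6. The fatty acid synthesis genes ATPCL and FASN1 fell less, by 1.33 and 0.77.

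Autophagy encloses cytoplasm in membranes for breakdown, with the Atg1 kinase complex at its start. Of 25 genes, 11 were up-regulated and 0 down-regulated, 11 were higher than in sugar, and sugar alone up-regulated 1. Atg1 gave 3933, 5045, 4020.0 and 3492 in hydrogen peroxide, 1207, 1564, 1247 and 1245 in sugar and 789.8, 993, 1093 and 1045 in stress controls, a log2 fold change of 2.03 ± 0.17 (adjusted p = 3.43e-11). Its partner Atg101 gave 1764, 2059, 1880.5 and 1867 in hydrogen peroxide, 527, 542, 541 and 641 in sugar and 392, 351, 481 and 530.2 in stress controls, a log2 fold change of 2.03 ± 0.16. Every hydrogen peroxide array of both genes lay above all others. Of the lipid-binding and membrane transfer proteins, Atg18b, Atg18a and Atg2 rose by 2.40, 1.70 and 1.61, and the cargo receptor ref(2)P by 0.78 ± 0.11. The elongation enzymes Atg5, Atg7 and Atg16 were not called, at 0.05, 0.24 and -0.02.

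Ribosome biogenesis factors assemble ribosomes in the nucleolus. Of 24 genes of ribosome biogenesis, 10 were up-regulated over stress controls, but sugar alone up-regulated 8, and against sugar 3 were higher and 1 lower. Ns1, a nucleolar GTPase, gave 311, 191, 337 and 255.3 in hydrogen peroxide, 311, 361, 430.3 and 275 in sugar and 58.8, 85.7, 139.8 and 116 in stress controls. Hydrogen peroxide and sugar arrays overlapped, and both were above the controls (log2 difference from sugar -0.30 ± 0.23). Of 18 tRNA synthetases 5 rose and 4 were higher than in sugar, led by ValRS (1.74), and a probe set for Aats-asp outside the counts had a log2 fold change of 1.25 ± 0.10. Structural ribosomal proteins were nearly all without a call, with 1 up of 31 in the cytosol and 2 down of 61 in mitochondria. The 31 cytosolic genes are those measured of 85 listed. For 22 of them the hydrogen peroxide arrays lay wholly above the controls, against 18% of all genes, and for 0 wholly below. Their median log2 fold change was 0.22, and 0.17 in sugar, and 0 were called against sugar. In the respiratory chain, 0 of 31 complex I genes were called in either direction in hydrogen peroxide. Of 23 genes of complexes II to IV, 2 rose and 3 fell, with a median of -0.17. For 11 of the 23 the hydrogen peroxide arrays lay wholly below the controls, against 15.1% of all genes, and for 4 wholly above. Against sugar, 1 of the 23 was higher and 1 lower. For the ATP synthase, 2 of 15 genes rose, the variant subunits ATPsynGL and ATPsynCF6L, and 2 fell, blw and ATPsynbeta, the alpha and beta subunits of the catalytic head. The hydrogen peroxide arrays lay wholly below the controls for 9 of the 15 and wholly above for 2, with a median of -0.32. ATPsynGL lost its call without hydrogen peroxide replicate 4 (0.53) and ATPsynCF6L without replicate 2 (0.56).

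Of the lists examined, the Jonah proteases of the gut had the lowest median. Jonah proteases and trypsins are made by midgut cells and secreted onto food, and maltases and amylases release sugars there. All 14 measured Jonah genes had hydrogen peroxide arrays below the control arrays, as 15.1% of all genes did, and 13 were down-regulated, with a median log2 fold change of -3.43. Jon74E gave 1065, 365, 655 and 721 in hydrogen peroxide, 22528, 22442, 23207 and 22239.9 in sugar and 39928, 46470.0, 43669.5 and 43124 in stress controls, a log2 fold change of -5.96 ± 0.20 over controls (adjusted p = 1.25e-20) and -5.02 ± 0.20 over sugar. The sugar arrays were lower than the controls as well, and the hydrogen peroxide arrays were far below both. In sugar alone 11 of the 14 were down-regulated, and 11 were lower in hydrogen peroxide than in sugar. Jon99Ci, Jon25Biii and Jon99Fi fell as well, with log2 fold changes of -4.83, -4.41 and -4.41. Near-identical Jonah genes, like the lysozymes and maltases below, can share signal between probe sets, so single members are uncertain. In whole flies, fewer cells of a type and less RNA per cell cannot be told apart.

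The carboxypeptidase gene CG12374 had the largest decrease of all genes. It gave 763, 412, 407 and 694 in hydrogen peroxide, 9049, 10703, 9896 and 11159.8 in sugar and 46809.8, 49309, 52999 and 45856 in stress controls, a log2 fold change of -6.38 ± 0.18 (adjusted p = 2.41e-22). The lipase gene CG6295 gave 414, 37.4, 32 and 44.5 in hydrogen peroxide, 2466, 2103, 2558 and 2198 in sugar and 7966, 8972, 7756 and 9645 in stress controls, a log2 fold change of -6.17 ± 0.32. Replicate 1 stood above the other hydrogen peroxide arrays, which were near the constant of 38.6, and all 4 were under every sugar array. Without replicate 1 the log2 fold change of CG6295 was -6.81. Of the 20 genes that fell furthest, all 20 were lower than in sugar too, and sugar alone down-regulated 15 of them over the same controls. The same hydrogen peroxide and control arrays chose these genes, so both counts are a description. These 20 genes also included the carboxypeptidases CG8562 and CG17633, the serine proteases CG17571 and CG11911 and the aminopeptidase CG31233, by the annotation in the study's supplementary tables.

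Of 14 trypsins and related proteases, 12 fell, with a median of -2.08, and 5 did so in sugar alone. The lowest log2 fold changes were -4.23 for betaTry, whose log2 difference from sugar was -3.57 ± 0.23, and -3.91 for epsilonTry. Carbohydrases differed from the proteases in that sugar alone down-regulated 0 of 20, while hydrogen peroxide down-regulated 17 and 18 were lower than in sugar. The maltase Mal-A8 gave 1546, 445, 999 and 1226 in hydrogen peroxide, 6546, 5249, 6392 and 6848 in sugar and 6091, 5496, 5635 and 6153 in stress controls, with sugar and controls overlapping and a log2 fold change of -2.55 ± 0.20. The alpha-mannosidase LManV fell by 2.69 on the log2 scale, or by 1.39 with the mean of its probe sets. Against the rest of its list, the maltase Mal-B2 gave 10494, 13376, 12463 and 9987 in hydrogen peroxide, 2424, 2886, 2874 and 2603 in sugar and 1187, 1202, 933 and 1025 in stress controls, a log2 fold change of 3.36 ± 0.17. Lysozymes were split in the same way, with 5 of 7 down, LysC at -2.55, and LysX up by 2.78 ± 0.33. LysX gave 610.4, 964, 1110.5 and 618 in hydrogen peroxide against 144, 169, 32.3 and 44.2 in stress controls, with no overlap.

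**Figure D5:**
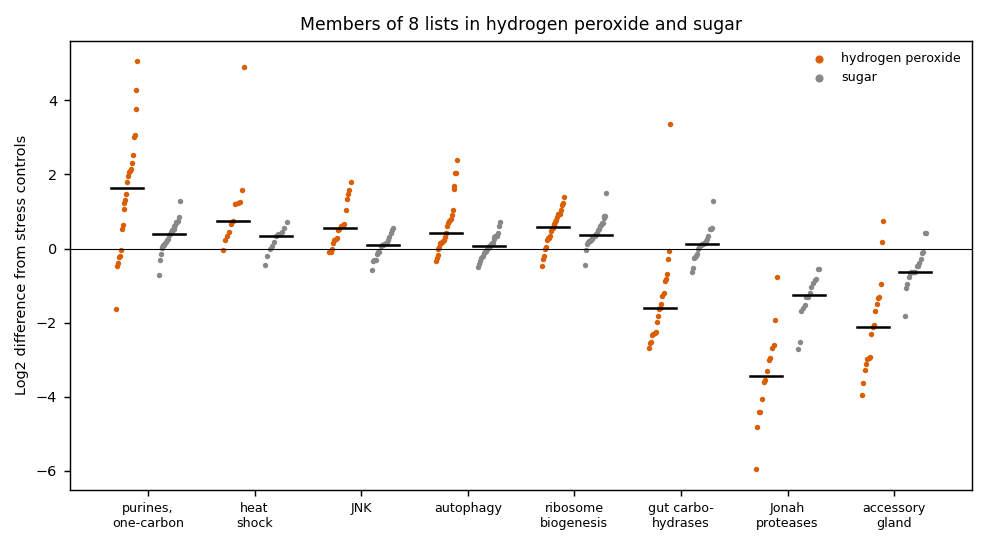
Log2 difference from stress controls of each measured gene (points) of 8 lists in hydrogen peroxide (orange, left of each pair) and in sugar (grey, right of each pair), with a bar at the median. Both columns use the same 4 control arrays. The medians for hydrogen peroxide and sugar are -3.43 and -1.26 in Jonah proteases and -1.62 and 0.11 in carbohydrases.

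Markers of midgut and fat body were examined beside these groups. Of 10 midgut enterocyte markers, 7 fell and 1, mex1, rose, and their summed signal ran from 50807 to 83607 in hydrogen peroxide, 170996 to 179825 in sugar and 202010 to 235775 in stress controls. Of 14 fat body markers, 8 fell and 2 rose, with sums of 35627 to 64344 in hydrogen peroxide, 140842 to 149446 in sugar and 162306 to 173547 in stress controls. The midgut list shares Jon65Aiii, Jon99Ci, Mal-A1, alphaTry, betaTry and epsilonTry with the enzyme lists above, and the fat body list shares bmm, FASN1, Lsd-1, apolpp and Tsf1 with the groups above. Of the 4 midgut markers outside those lists, the proton pump subunit Vha100-4 fell (-1.05), mex1 rose (0.71), and the transcription factors GATAe (-1.11) and nub (0.61) were not called, although without stress control replicate 1 GATAe was called down at -1.45. Of the 9 such fat body markers, Acbp5 (-2.66), Nplp2 (-2.19), regucalcin (-1.61) and Lsp2 fell, Cyp6a17 rose (0.77), and Fbp1 (-0.55), Fbp2 (0.51), Yp1 (-1.35) and svp (-0.59) were not called. The part of tissue content in the decreases of digestive, lipid and storage genes was not tested. Of 11 blood cell markers, 4 fell, Hml, Pxn, PPO1 and PPO2, by 0.97 to 1.49, and the sums were 4171 to 5317 in hydrogen peroxide, 7103 to 8342 in sugar and 8331 to 9076 in stress controls.

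The male accessory gland makes seminal fluid proteins, and their genes fell in hydrogen peroxide. Of 17 markers, 15 were down-regulated and 1, Acp32CD, was up-regulated at 0.74, with a median of -2.13. Acp26Aa, the egg-laying prohormone passed to females, gave 214, 129, 254.6 and 137 in hydrogen peroxide, 1640.4, 1856, 1084 and 1796 in sugar and 3271, 3841, 3771 and 2523 in stress controls, a log2 fold change of -3.95 ± 0.22 over controls and -2.89 ± 0.22 over sugar. The 3 groups did not overlap. Acp53Ea fell by 3.64 and the sex peptide gene SP by 1.69. In sugar alone 9 of the 17 were down-regulated, and 14 were lower in hydrogen peroxide than in sugar. Ionizing radiation down-regulated 15 of the 17 over the same controls and up-regulated 1, with a median of -1.8. Fewer markers of other tissues were called in hydrogen peroxide. Of 11 Malpighian tubule markers, 1 rose and 3 fell, with a median of 0.05. Their sums were 15794 to 19438 in hydrogen peroxide, 23820 to 26919 in sugar and 19771 to 21529 in stress controls. Of 22 testis markers, 1 rose and 0 fell, with sums of 214895 to 233786 in hydrogen peroxide, 165447 to 186981 in sugar and 190691 to 211794 in stress controls. Of 20 neuronal markers 1 fell, of 21 muscle markers 1 rose and 3 fell, and of 19 photoreceptor markers 2 rose and 2 fell.

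The ionizing radiation flies had the age and the 2 days on sucrose in common with the hydrogen peroxide flies. Over all genes, 536 were higher and 535 were lower in hydrogen peroxide than in radiation by limma's moderated test, 4.94% and 4.93%. Without radiation replicate 1, 481 were higher and 448 lower. Over stress controls, radiation down-regulated 13 of 14 Jonah genes, 11 of 14 trypsins and 13 of 20 carbohydrases, against 8.23% of all genes. It up-regulated 15 of 37 DNA damage genes and 9 of 25 autophagy genes, against 7.85% of all genes. On the JNK and heat shock lists it up-regulated 5 of 18 and 4 of 11. In the other direction it called 1 carbohydrase and 0 of the rest. These list counts were not repeated without radiation replicate 1. The 20 genes that rose most over stress controls are a choice that rests on the same hydrogen peroxide arrays. Radiation up-regulated 19 of these 20 over the same controls, and 12 were higher in hydrogen peroxide than in radiation. The furthest apart was CG15043, with 13188, 13799, 13952 and 13225 in hydrogen peroxide, 1753, 1751, 1764 and 1942 in radiation, 1901, 2027, 1803 and 1905 in sugar and 2692, 1451, 1878 and 1757 in stress controls. Radiation, sugar and control arrays overlapped, and the hydrogen peroxide arrays were higher than radiation by 2.88 ± 0.15 on the log2 scale (adjusted p = 3.37e-15). Of the 20 genes that fell furthest, radiation down-regulated 19 over the same controls, or 20 without radiation replicate 1. In hydrogen peroxide 14 of the 20 were lower than in radiation, or 10 without that replicate. Among them was CG15263, with 159, 15.8, 11.2 and 73.8 in hydrogen peroxide against 994, 928, 754 and 861 in radiation (log2 difference -3.38 ± 0.25, adjusted p = 3.18e-11). Among genes named above, GstD5 was higher in hydrogen peroxide than in radiation by 2.49 ± 0.28, LysX by 3.14 ± 0.33, Ets21C by 1.43 ± 0.28 and dome by 1.34 ± 0.13. In the other direction l(2)efl was lower in hydrogen peroxide than in radiation by 1.03 ± 0.12 (adjusted p = 2.26e-07) and Drs by 1.20 ± 0.29 (adjusted p = 0.00265). Without radiation replicate 1 the call for Drs was lost, at -0.91 (adjusted p = 0.0227).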

How the data were processed

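RNA of groups of 25 whole male flies was hybridised by the study's authors to Affymetrix DrosGenome1 arrays, 1 array per group. The authors deposited 1 signal intensity per probe set on a linear scale, in a table for all 35 arrays. Per the submitters' processing notes the tool was MAS5, with no version stated. The study drew its own fold changes from another signal model, built on perfect-match probes over several chips, so sizes can differ. The sugar arrays were deposited on a lower scale.

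Of 14010 probe sets, 13966 entered the tests and the other 44 are Affymetrix controls. The intensities were quantile-normalized over all arrays, 38.6 (the 10th percentile) was added and log2 was taken, which understates fold changes of dim genes. Fold changes are therefore on the log2(signal + 38.6) scale. limma 3.58.1 in R 4.3.3 fitted 8 group means with 27 residual degrees of freedom (3.2 from the prior). Calls against stress controls used the nested F-test over 6 contrasts at a false discovery rate of 1% and 1.5-fold, and calls against sugar and radiation the moderated test with Benjamini-Hochberg adjustment at the same thresholds. Adjusted p-values are from limma's moderated test of 1 contrast, and 158 called genes have one of at least 0.01. A gene is represented by its probe set with the highest mean signal. The platform annotation gave 12444 probe sets 1 gene, counting the Hsp70 set that it lists with several copies, 327 several and 1196 none, and 12394 symbols were updated through RefSeq. Probe sets with several genes or none are in no gene count. Tables and figures were made with Python 3.11.15, pandas 2.3.3 and matplotlib 3.10.9, and the fit was tested on simulated data. The number of arrays, 4 per group here, limits the precision.

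Members and gene lists were chosen with earlier results of these data known. Named genes are the 20 largest changes in each direction among genes that were called with no overlap of arrays, up to 5 called members of each list and direction, genes named by the study, and the 5 called genes most and least different from sugar in each direction. Further list members were named after their values were seen, to give those not called and to show families whole. Alternatives were other normalizations, pseudocounts, filters, call rules, fits on fewer arrays, a replicate block and leaving out each array. Leaving out each radiation array, and each array for probe sets in no count, was chosen after the data were seen.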

Additional observations from a re-analysis of the deposited data

Results flagged for a closer look

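For 25 of 384 groups of 4 arrays examined among the named genes, 1 array lay further from its nearest neighbour than Dixon's 95% limit for 4 values allows, which chance does in about 1 of 20 groups. Hydrogen peroxide replicate 2 was that array 8 times and stress control replicate 1 was it 5 times. Hydrogen peroxide replicate 1 stood apart for CG6295 at 414 (others 32 to 44.5) and Obp56e at 85.9 (others 30.5 to 33.5). Hydrogen peroxide replicate 2 stood apart for GstE12 at 3571 (others 4178 to 4304), GstT3 at 555 (others 1253 to 1359), Hsc70-3 at 7841 (others 4756 to 5090.1), Jon99Ci at 258 (others 437 to 459), Mthfs at 613 (others 1071 to 1123), Prat at 176 (others 218 to 224), regucalcin at 1652 (others 2245 to 2305) and aay at 22675 (others 16797 to 17656). Hydrogen peroxide replicate 4 stood apart for ATPsynbeta at 1829.5 (others 2097 to 2157), Cyp6a17 at 2153 (others 2933 to 3041), Hsp70 at 3077 (others 2463 to 2553) and Lpin at 9694 (others 7691 to 7841).

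Stress control replicate 1 stood apart for ATPsynCF6L at 2027 (others 1802 to 1824), Corp at 112 (others 201 to 211), Hsp70 at 170.1 (others 26.7 to 32.1), Obp99b at 7649 (others 6618 to 6669.7) and vri at 3653 (others 4094 to 4172). Stress control replicate 2 stood apart for Mal-A1 at 31062 (others 38626 to 39498). Stress control replicate 3 stood apart for Gtpx at 10494 (others 9645 to 9784) and dome at 379 (others 477 to 491). Stress control replicate 4 stood apart for CG17633 at 10266 (others 12953 to 13225), Cyp4ac3 at 249.5 (others 366 to 390.2) and Jon65Aiii at 44976 (others 49309 to 50245).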

How the results depend on the processing

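The counts of called genes stayed within 1.5 times of the values in the report under the other normalizations, pseudocounts, fits on fewer arrays, the filter on dim probe sets, the mean over probe sets and limma's moderated test of the contrast alone. They moved further under a 2-fold threshold, to 403 up-regulated and 597 down-regulated genes against stress controls and 306 higher and 533 lower against sugar. Leaving out 1 array at a time gave 908 to 989 up-regulated and 982 to 1061 down-regulated genes against stress controls, and 617 to 680 higher and 895 to 993 lower genes against sugar. Leaving out each radiation array, chosen after the data were seen, gave 472 to 516 higher and 448 to 510 lower genes against radiation, and 10 to 15 of the 20 genes that fell furthest were then lower than in radiation. With the replicate number as a block the counts were 466 up-regulated and 552 down-regulated genes against stress controls and 350 higher and 456 lower against sugar. The block fit also differed in other ways. It used only the arrays of the 2 groups compared, and limma's moderated test in place of the nested F-test. The deviations of same-numbered arrays of hydrogen peroxide and stress controls correlated at 0.012, 0.038, 0.026 and -0.025, so the numbers name arrays and do not pair them. The cause of the lower counts was not tested. Of 192 genes named in the text, none turned its direction while called. The block fit took the call from 37, the fit on the 2 groups compared from 13, and 14 had no value once dim probe sets were left out. A pseudocount at the 25th percentile lowered the log2 fold change of Hsp70 to 3.95, Arc2 to 2.04, Ets21C to 1.56 and Mmp2 to 0.87. Signals near background limit such dim genes: 25 up-regulated genes had a control mean, and 22 down-regulated genes a hydrogen peroxide mean, below 38.6.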

Other observations

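Genes of the ESCRT machinery, which buds vesicles into endosomes and cuts and repairs membranes, were listed after their values had been seen, so their counts are a description. Of 21 measured genes of 23, 15 were up-regulated by hydrogen peroxide over stress controls and 0 were down-regulated, with a median log2 fold change of 1.03, and 14 were higher than in sugar. Ionizing radiation up-regulated 12 of the 21 over the same controls and down-regulated 0, with a median of 0.68. CHMP2B gave 2361, 2940.2, 1965 and 2921 in hydrogen peroxide, 880.4, 973, 1017 and 830.5 in sugar and 643, 581, 568 and 622 in stress controls, a log2 fold change of 1.99 ± 0.12 (adjusted p = 1.08e-14). ALiX, Ist1, Vps2 and Vta1 rose by 1.95, 1.71, 1.68 and 1.59. The summed signal of the list was 57265 to 67973 in hydrogen peroxide, 28459 to 30247 in sugar and 25072 to 27493 in stress controls, with sugar alone up-regulating 3 of the genes.

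Odorant-binding proteins carry small hydrophobic ligands in sensory and other tissues. Of 35 measured genes, 7 were down-regulated and 1, Obp59a, was up-regulated, and 8 were lower than in sugar. Obp99b gave 2368, 459, 1392 and 1464 in hydrogen peroxide, 5669, 4263, 5009.6 and 3993 in sugar and 7649, 6618, 6669.7 and 6657 in stress controls, a log2 fold change of -2.45 ± 0.30, and Obp56e fell by 2.49 on the log2 scale. Of 120 cuticle and peritrophic matrix genes, 11 rose and 12 fell, close to the shares of all genes, 9.01% and 9.74%. Of 7 activity-regulated genes, 4 rose, CrebB by 1.36 and Arc1 by 1.12 beside Arc2. Of 13 circadian genes, jet and vri rose, by 1.19 and 0.75.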
